A study of Mus musculus with 48 samples.

Results

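The 10 genes described here belong to the Bcl2 family, which sets whether a mitochondrion releases cytochrome c and so starts apoptosis: the BH3-only genes Bmf, Bcl2l11, Bbc3, Pmaip1, Bad and Bid, the survival genes Mcl1, Bcl2 and Bcl2l1, and the pore-forming gene Bax. They are 10 of the 47480 gene symbols counted in the series, all 10 had at least 1 read in each of the 48 libraries, and all 10 passed the filter on low counts in every comparison. The genes were selected on their values in the comparison of stretched with non-stretched cells, so those values are given below as a description, with no p-value, and a member's place past the limits used for all genes is not evidence of a response. Tests are given for the difference between differentiation stages, the change over time without stretching and the difference between experiments. They are also given for other genes of the pathway, whose lists were likewise drawn up with earlier results of these data known.

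RNA was sequenced from C2C12 cells, a mouse myoblast line that leaves the cell cycle and fuses into myotubes when serum is withdrawn. The 12 groups of 4 libraries were myoblasts and cells differentiated for 4 days, each stretched for 1, 3 or 6 h, and each with its own non-stretched cells of the same time point; both kinds grew on collagen-coated flexible plates, and the stretch was cyclic and equal in all directions. Library titles carry a code taken here as the experiment: myoblasts came from B27 (replicates 7 and 8) and B31 (replicates 9 and 10, of which stretched replicate 9 at 1 h is titled B231 and named B31 in its table), differentiated cells from B25 and B28, and replicate 4 of the differentiated cells stretched for 1 h was the sole library of B17. All groups are 1 immortal cell line without any genetic change between them. The stages also differed in seeding density and medium.

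Total counts ran from 48447318 to 68967899 per myoblast library and from 53916927 to 77080730 per differentiated library. The differentiation markers followed the labels: among non-stretched libraries Myog averaged 1.58 CPM before and 883 CPM after differentiation, Ckm 0.0793 and 330 CPM, and the proliferation marker Mki67 576 and 112 CPM. Of the further myoblast markers, Myf5 fell from 44.8 to 21.5 CPM. Myod1 went the other way, from 103 to 164 CPM. CPM, the library-scaled count, was computed with TMM factors over all 48 libraries together. The mean of the adipocyte, endothelial and bone markers Adipoq, Plin1, Pecam1, Cdh5, Bglap and Ibsp and of the leukocyte marker Ptprc did not exceed 0.154 CPM in either stage, and the further leukocyte marker Cd68 averaged 1.11 CPM before and 0.62 CPM after differentiation. In bulk RNA of this kind, fewer cells of a type and less RNA per cell cannot be told apart.

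BH3-only proteins carry a short helix that fits the groove of the survival proteins and, when they accumulate or are released, frees Bax and Bak1 to open the outer mitochondrial membrane. Bmf and Bim, the product of Bcl2l11, are also tied to the cytoskeleton, Bmf through dynein light chain 2 on the actin-based motor myosin V and Bim through dynein light chain 1 on microtubules. Bmf, short for Bcl2 modifying factor, is known to be released from actin structures upon loss of cell attachment, and during muscle differentiation some myoblasts die while the surviving myotubes become more resistant to apoptosis.

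Bmf lies on the minus strand at chr2:118528757-118549687 (GRCm38, the mm10 build), with 8 transcripts in GENCODE vM21. RefSeq has 3 windows for it in the table used here, and the 250 bases before each start are shown because Bmf was the member that differed most between the stages; capitals mark CAGCTG, the E-box core that myogenic factors such as MyoD and myogenin bind, searched on both strands (the letters read the same on each). The 4th sequence is the 250 bases before the outermost start of Bcl2l11, for contrast, with the FoxO motif GTAAACA in capitals.
Bmf, chr2:118549687-118549936, minus strand: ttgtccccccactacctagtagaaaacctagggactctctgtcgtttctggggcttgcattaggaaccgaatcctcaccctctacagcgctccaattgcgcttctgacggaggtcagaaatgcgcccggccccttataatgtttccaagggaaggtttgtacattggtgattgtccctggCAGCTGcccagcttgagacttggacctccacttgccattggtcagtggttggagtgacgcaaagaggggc
Bmf, chr2:118547600-118547849, minus strand: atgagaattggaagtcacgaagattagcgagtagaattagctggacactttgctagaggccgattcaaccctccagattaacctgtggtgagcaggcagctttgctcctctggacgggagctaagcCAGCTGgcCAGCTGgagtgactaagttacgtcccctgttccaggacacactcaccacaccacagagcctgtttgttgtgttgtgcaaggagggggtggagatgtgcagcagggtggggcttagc
Bmf, chr2:118544588-118544837, minus strand: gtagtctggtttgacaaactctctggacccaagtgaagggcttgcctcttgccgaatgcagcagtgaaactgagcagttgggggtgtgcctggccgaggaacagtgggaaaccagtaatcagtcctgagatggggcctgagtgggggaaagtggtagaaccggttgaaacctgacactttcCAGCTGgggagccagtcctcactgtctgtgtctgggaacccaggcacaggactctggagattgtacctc
Bcl2l11, chr2:128125788-128126037, plus strand: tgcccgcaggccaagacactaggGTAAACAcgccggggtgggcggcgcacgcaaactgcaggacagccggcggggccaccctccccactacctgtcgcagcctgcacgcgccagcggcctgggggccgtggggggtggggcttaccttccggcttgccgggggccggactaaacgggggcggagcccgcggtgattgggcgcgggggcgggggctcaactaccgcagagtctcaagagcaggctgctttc
The E-box core began 70 bases before the outermost Bmf start, 124 and 116 bases before the middle start and 69 bases before the innermost start. It was in 3 of 3 Bmf windows, in 0 of the 14 windows of 8 other members that were examined, and in 13% of all 32841 RefSeq windows of that length. Pmaip1 was the member left out, and whether its windows hold either motif was not examined. GTAAACA, searched on both strands, began 227 bases before the outermost Bcl2l11 start and was absent from the other of the 2 Bcl2l11 windows. It was also in 1 Bbc3 window, so in 2 of the 17 member windows examined, and in 3.17% of all windows. These are matches of letters in GRCm38.p6 sequence, and binding was not measured.

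Between the stages Bmf had the largest log2 fold change of the 10 members. In the 12 non-stretched myoblast libraries Bmf ranged from 0.473 to 1.12 CPM with a median of 0.848, which is 31 to 76 reads per library. In the 12 non-stretched differentiated libraries it ranged from 15.4 to 19.5 CPM with a median of 16.8, or 946 to 1164 reads. The stages did not overlap, and the fitted difference was a log2 fold change of 4.40 ± 0.0796 (SE, n = 12 and 12), a 21.1-fold rise (adjusted p = 1.47e-26, edgeR quasi-likelihood test with Benjamini-Hochberg adjustment over 16269 genes). The 12 libraries of a stage came from 2 experiments. With the libraries summed per experiment the log2 fold change was 4.41 (adjusted p = 1.62e-07, edgeR).

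A pair of further BH3-only genes rose with Bmf. Pmaip1, which encodes Noxa, the partner that marks Mcl1 for degradation, went from 28.6 ± 2.22 to 118 ± 4.84 CPM (SD, n = 12 each), a log2 fold change of 2.02 ± 0.032 (SE). Bbc3, which encodes Puma, a binder of all survival proteins, went from 5.79 ± 0.414 to 10.5 ± 0.878 CPM, a log2 fold change of 0.83 ± 0.037. For both genes every differentiated library was above every myoblast library. These 3 of 10 members passed both limits upward, an adjusted p under 0.05 and an absolute log2 fold change of at least 0.58, where 27% of all tested genes did. No member passed both limits downward by edgeR or DESeq2, where 24.8% of all genes did in edgeR, and 3 were lower by the adjusted p alone.

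The other 7 members differed by less. The survival gene Bcl2l1, which encodes Bcl-xL, was higher in every differentiated library (59.0 ± 1.89 against 84.0 ± 1.93 CPM, log2 fold change 0.48) and Bax was lower in every one (76.7 ± 2.29 against 56.0 ± 1.28 CPM, log2 fold change -0.49). Bcl2l11 (log2 fold change 0.29), Bcl2 (0.18), Bad (-0.15) and Bid (-0.34) passed the adjusted p but not the fold limit, and their libraries overlapped between stages. Bid encodes the BH3-only protein that caspase 8 cuts, and Bad the one that growth factor kinases phosphorylate. At a log2 fold change of 0.01 ± 0.017, Mcl1, the short-lived survival gene, was the 1 member past neither limit (215 ± 4.77 against 222 ± 7.72 CPM). Myoblasts and differentiated cells came from different experiments, so stage and experiment cannot be told apart.

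Levels can be set side by side between genes only per length, here CPM per kb of merged exon in the non-stretched libraries. In myoblasts the order was Mcl1 (63 CPM per kb), Bax (48.7), Bid (18.3), Bcl2l1 (12.9), Bad (11.2), Pmaip1 (10.5), Bbc3 (2.73), Bcl2l11 (1.54), Bcl2 (1.12) and Bmf (0.151). The libraries of Bad and Pmaip1 overlapped on that scale, as did those of Bcl2l11 and Bcl2. In differentiated cells Mcl1 was still first (64.9 CPM per kb), Pmaip1 stood 2nd at 43.2, and Bmf stood 8th at 3.24, above Bcl2l11 at 1.92 and Bcl2 at 1.3. There the libraries of Bcl2l1 (18.3 CPM per kb) and Bid (14.8) overlapped, and those of no other neighbours did.

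**Figure D1:**
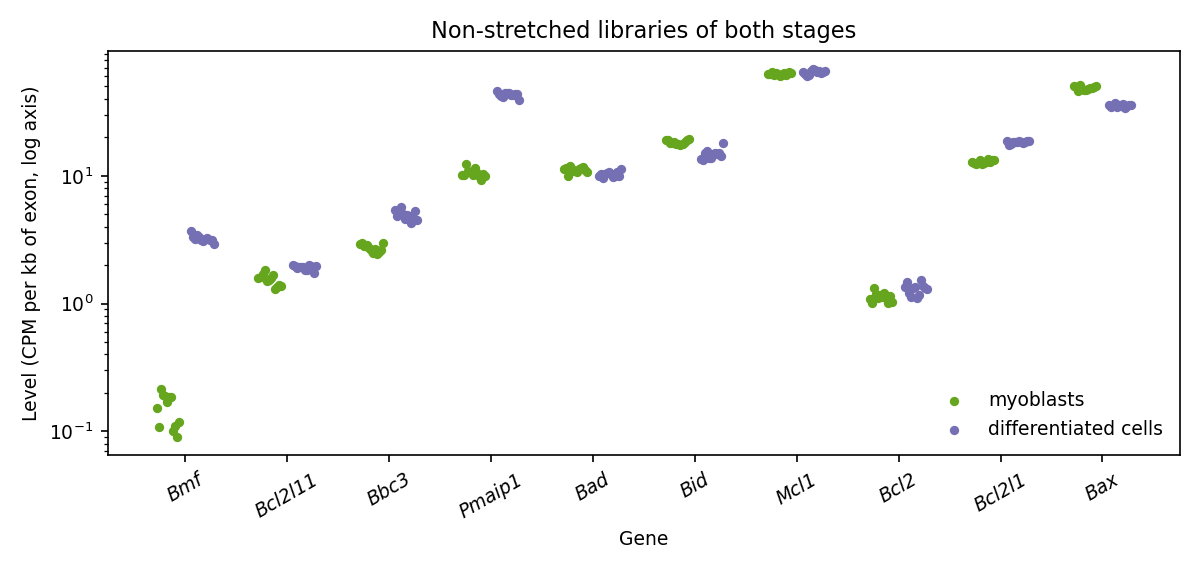
Level of each member in CPM per kb of exon (log axis) in the 12 non-stretched libraries of myoblasts and the 12 of differentiated cells, 1 point per library. Bmf moves from the lowest place at 0.151 to 3.24 CPM per kb, Pmaip1 from 10.5 to 43.2, and Mcl1 stays near 63 and 64.9.

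Some of these counts share sequence with neighbouring genes. Of the 31-base words in each member's transcripts, 18.4% of those of Bad also lie in Gpr137, 16.9% of those of Bid in Bcl2l13, both on the opposite strand, and 9.89% of those of Bax in the same-strand gene model Gm45808. The libraries were made with a stranded kit; whether the counting used strand is not given in the sources used here. Bcl2 shares 5.49% with an antisense RNA, and the other 6 members share at most 0.498% with any other gene.

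Stretched cells held less Bmf mRNA at each time point and in both stages. In myoblasts at 1 h the non-stretched libraries measured 0.803, 0.569, 1.12 and 1.01 CPM and the stretched ones 0.348, 0.438, 0.433 and 0.34 CPM. At 3 h they measured 0.993, 0.893, 0.974 and 0.978 against 0.588, 0.548, 0.589 and 0.41 CPM. All stretched myoblast libraries lay below all non-stretched ones at both times. At 6 h the non-stretched values were 0.529, 0.582, 0.473 and 0.618 CPM and the stretched ones 0.172, 0.137, 0.481 and 0.317 CPM, and here the groups overlapped by stretched replicate 9. The log2 fold changes were -1.16 ± 0.231 (SE), -0.84 ± 0.162 and -0.96 ± 0.323 in order of time, with 4 libraries in each group. These rest on 8 to 76 reads per library, so single libraries weigh heavily.

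In differentiated cells the same comparison rested on 365 to 1164 reads per library. At 1 h the non-stretched libraries measured 19.5, 17.4, 16.8 and 18.1 CPM and the stretched ones 6.92, 11.2, 11.5 and 12.4 CPM, the lowest being replicate 4, the library from B17. At 3 h the values were 17.3, 16.4, 16.3 and 16.7 against 9.97, 9.96, 9.05 and 8.85 CPM. At 6 h they were 17, 16.6, 16.6 and 15.4 against 9.87, 9.11, 10.6 and 10.4 CPM. No stretched library reached the level of a non-stretched one at any of the 3 times. The log2 fold changes were -0.77 ± 0.149 (SE), -0.82 ± 0.0521 and -0.71 ± 0.0577, and the 1 h value was -0.62 without replicate 4.

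**Figure D2:**
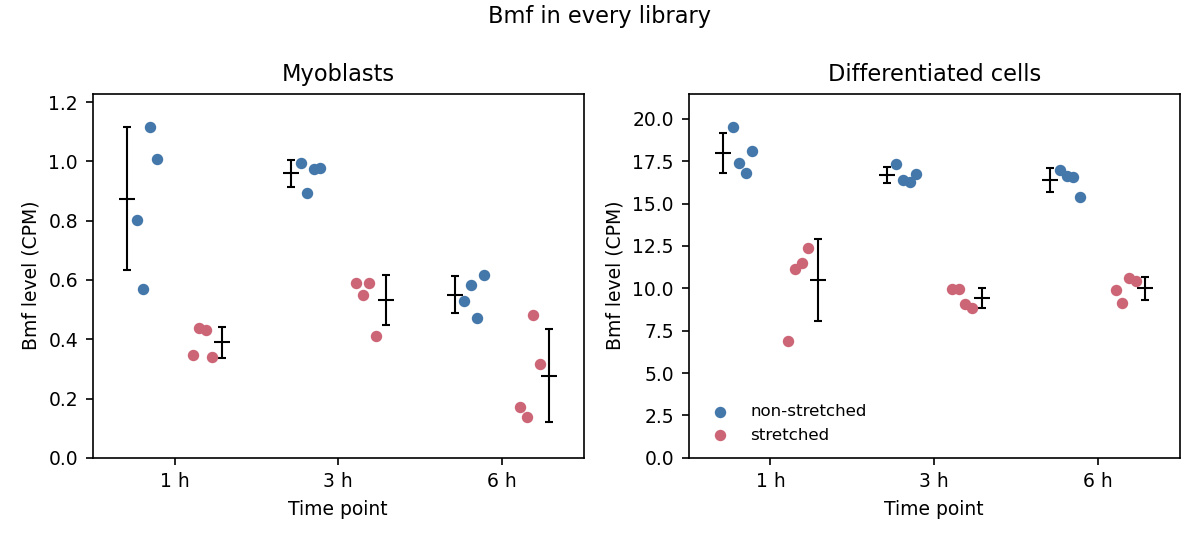
Bmf level in CPM in each of the 48 libraries, by time point, with myoblasts on the left and differentiated cells on the right (separate linear axes from 0); the black bars show the mean and SD of 4 libraries. Stretched libraries lie below non-stretched ones in every group pair except myoblasts at 6 h, where the highest stretched library (0.481 CPM) is above the lowest non-stretched one (0.473 CPM).

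Within the experiments Bmf was lower with stretching in each of the 12 pairs, which set 2 libraries against 2, except that B28 at 1 h holds 1 stretched library. In myoblasts the log2 ratio of stretched to non-stretched mean CPM of Bmf was -0.80 in B27 and -1.46 in B31 at 1 h, -0.73 and -0.97 at 3 h, and -1.85 and -0.45 at 6 h. In differentiated cells it was -0.71 in B25 and -0.50 in B28 at 1 h, -0.76 and -0.88 at 3 h, and -0.82 and -0.60 at 6 h. The widest gap between experiments was that of the myoblasts at 6 h.

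As a description only, Bmf was the 1 member past both limits in 5 of the 6 comparisons of stretched with non-stretched cells in edgeR. In the differentiated cells at 1 h no member was past them in edgeR, and Bmf was in DESeq2. Over all genes tested, 1.25% were past both limits at 1 h, 1.71% at 3 h and 2.17% at 6 h in myoblasts, and 0.27%, 1.63% and 2.04% in differentiated cells; as the members were chosen from these comparisons, nothing is read from their count. The place of Bmf past both limits in myoblasts was lost at 1 h without stretched replicate 10, and at 6 h without any 1 of 7 of the 8 libraries (all but stretched replicate 9), where the log2 fold change ran from -1.03 to -0.74. Without stretched replicate 9 it was -1.37. In differentiated cells at 1 h Bmf was past both limits without stretched replicate 4 or 9. The other 9 members moved by at most 0.39 on the log2 scale in either direction. Whether the libraries of a member overlapped between stretched and non-stretched groups is likewise a description. The share of all genes without overlap was not computed.

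**Figure D3:**
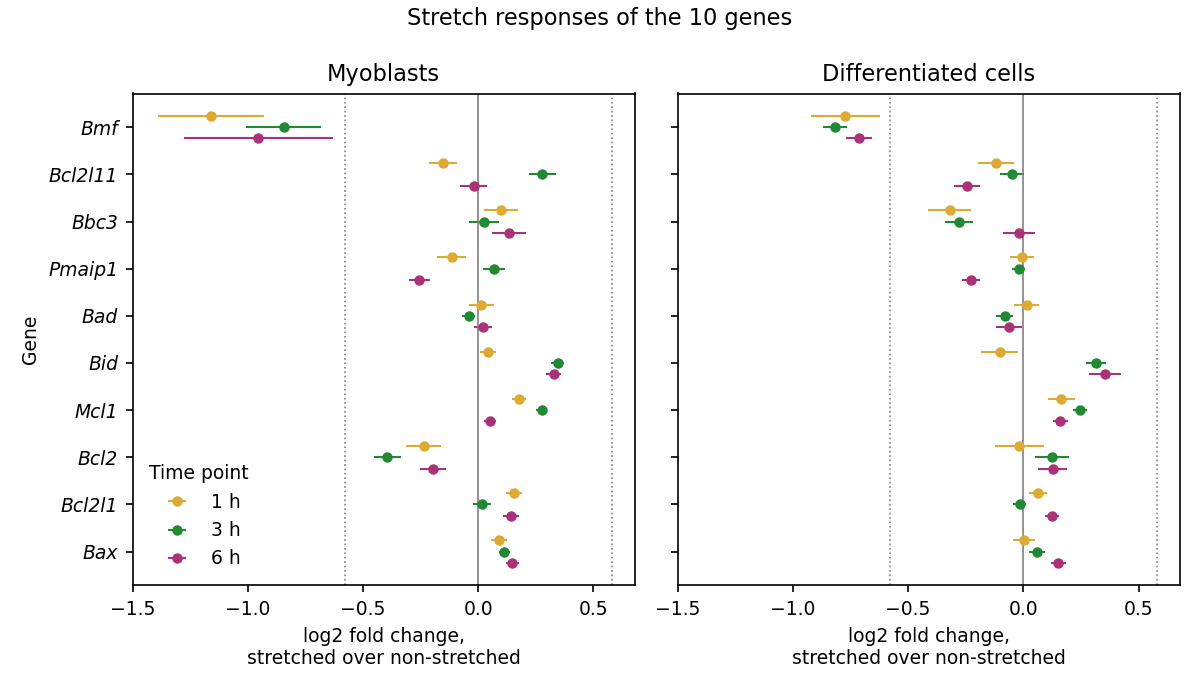
log2 fold change of stretched over non-stretched cells for the 10 members at 1 h, 3 h and 6 h, in myoblasts (left) and differentiated cells (right); points are edgeR estimates from 4 against 4 libraries, bars their SE, and dotted lines the fold limit of 0.58 in each direction. Bmf lies between -1.16 and -0.71 in all 6 comparisons, and the other members lie within 0.39 of 0.

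Among the remaining BH3-only genes, Bid was higher in stretched cells at the later times in both stages. At 3 h it averaged 63.3 ± 1.82 CPM in non-stretched and 81.0 ± 2.18 CPM in stretched myoblasts (SD, n = 4 each), and 51.3 ± 2.5 against 63.8 ± 3.22 CPM in differentiated cells. At 6 h the means were 66.3 ± 2.63 against 82.1 ± 2.78 CPM and 54.9 ± 6.03 against 70.4 ± 3.13 CPM. In all 4 of these comparisons every stretched library lay above every non-stretched one, and the log2 fold changes were 0.32 to 0.35; at 1 h they were 0.04 in myoblasts and -0.10 in differentiated cells, with overlapping groups.

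Pmaip1 was lower in stretched cells at 6 h. The non-stretched myoblasts then measured 27, 25.5, 28.1 and 27 CPM and the stretched ones 21.0, 21.6, 23.7 and 22.9 CPM, a log2 fold change of -0.26. In differentiated cells the values were 118, 120, 118 and 107 against 98.7, 95.7, 102 and 101 CPM, a log2 fold change of -0.23. The groups stood apart at 6 h in both stages and overlapped at 1 h and 3 h, where the log2 fold changes were -0.12 and 0.07 in myoblasts and -0.01 and -0.02 in differentiated cells.

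Bcl2l11 and Bbc3 differed in single comparisons. Bcl2l11 was higher in all stretched myoblasts at 3 h (12.6 ± 0.553 against 15.4 ± 1.26 CPM, log2 fold change 0.28) and lower in all stretched differentiated cells at 6 h (15.4 ± 1.04 against 13.0 ± 0.402 CPM, log2 fold change -0.25). Bbc3 was lower in all stretched differentiated cells at 3 h (10.3 ± 0.362 against 8.47 ± 0.6 CPM, log2 fold change -0.28), measured -0.32 at 1 h with overlapping groups, and lay between 0.03 and 0.13 in myoblasts. Bad stayed within 0.08 of 0 on the log2 scale in all 6 comparisons, and its groups overlapped in each.

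Of the survival genes, Mcl1 was higher in stretched cells in 5 of 6 comparisons with no overlap. In myoblasts it went from 216 ± 5.22 to 244 ± 7.1 CPM at 1 h and from 212 ± 4.18 to 259 ± 4.58 CPM at 3 h, log2 fold changes of 0.18 and 0.28. At 6 h the myoblast groups overlapped, at 218 ± 4.51 and 223 ± 5.39 CPM. In differentiated cells the 3 log2 fold changes in order of time were 0.17, 0.24 and 0.16. The earliest held replicate 4 at 267 CPM, above the 229 to 233 CPM of the other 3 stretched libraries. As the share of all genes without overlap was not computed, nothing is read from the count of 5 of 6.

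Bcl2 went the other way in myoblasts. It measured 10.1, 10.6, 10.3 and 11.0 CPM without stretching at 3 h and 8.65, 8.43, 7.37 and 7.76 CPM with it, a log2 fold change of -0.39. At 6 h the groups were also apart, at -0.20. The means at 1 h were 10.5 ± 1.21 CPM without and 8.96 ± 0.307 CPM with stretching (SD, n = 4 each), and the groups overlapped. In differentiated cells its log2 fold changes were -0.02, 0.13 and 0.13 and the groups overlapped at all 3 times. Bcl2l1 was higher in all stretched myoblasts at 1 h (57.9 ± 0.796 against 64.5 ± 3.02 CPM) and in all stretched differentiated cells at 6 h (84.6 ± 1.66 against 92.4 ± 1.61 CPM), by 0.16 and 0.13 on the log2 scale. Bax, the pore former, was higher in all stretched myoblasts at 3 h and 6 h and in all stretched differentiated cells at 6 h, by 0.11, 0.15 and 0.15.

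**Figure D4:**
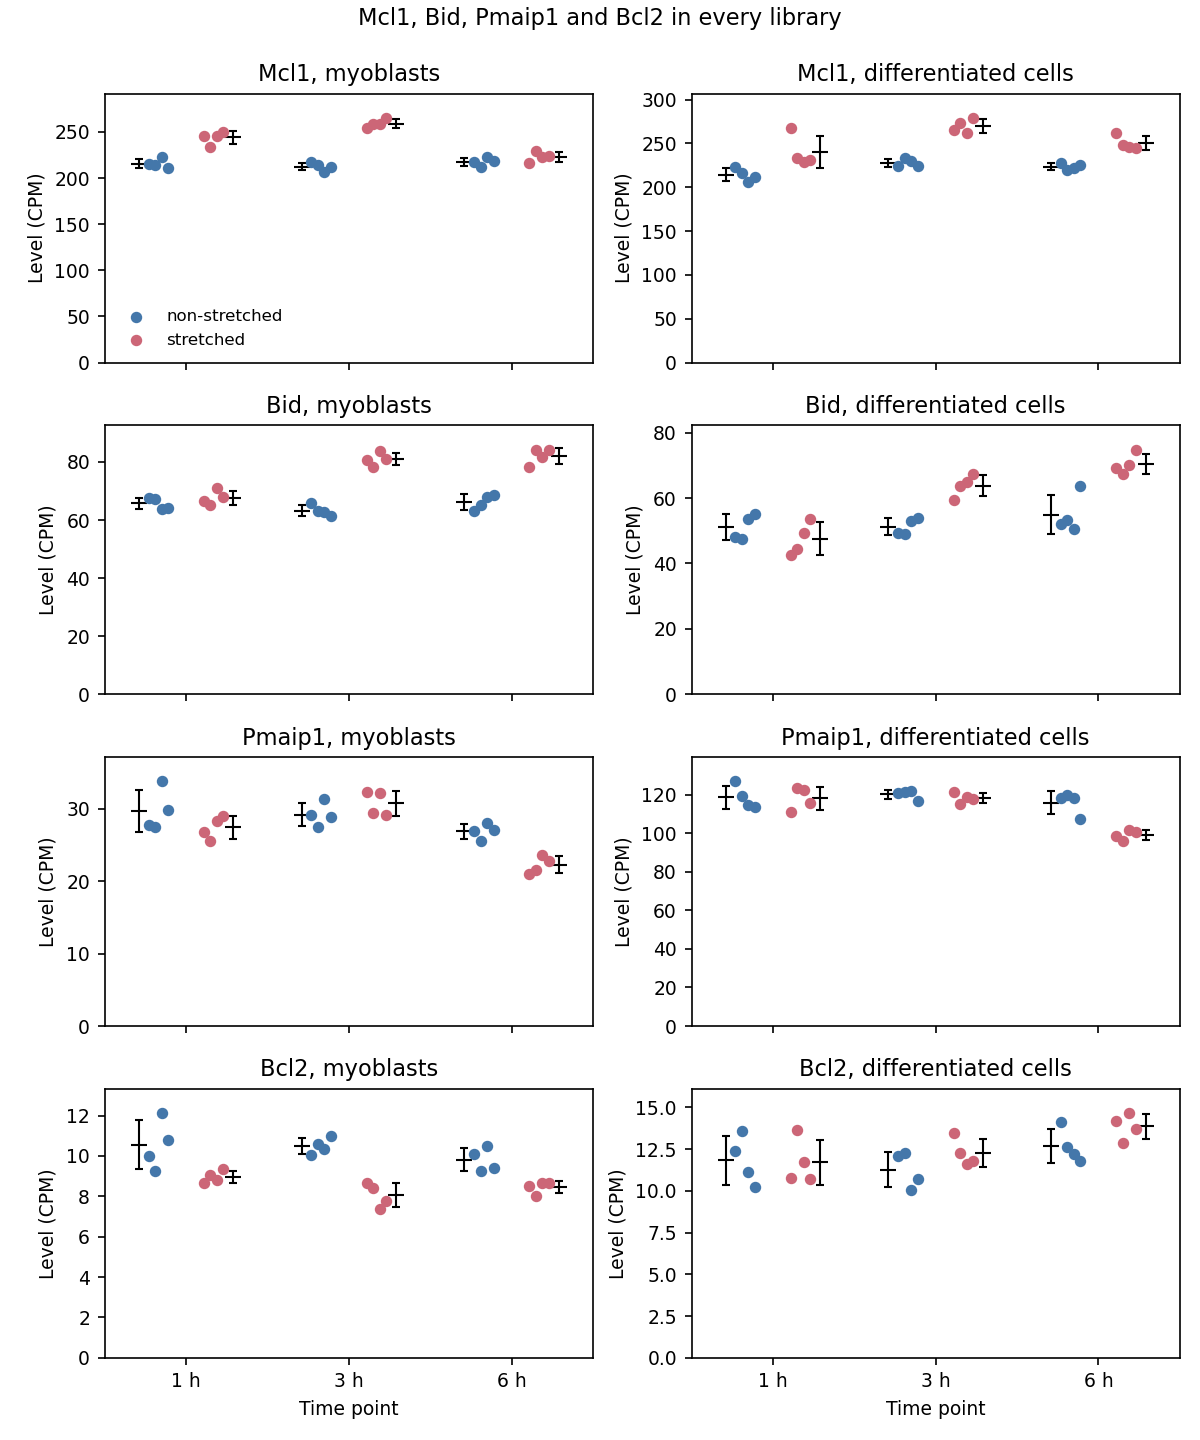
Level in CPM of Mcl1, Bid, Pmaip1 and Bcl2 in each of the 48 libraries by time point, with myoblasts on the left and differentiated cells on the right (linear axes from 0); the black bars show the mean and SD of 4 libraries. Mcl1 and Bid are higher with stretching at 3 h in both stages, and Pmaip1 is lower at 6 h in both. Bcl2 is lower at 3 h and 6 h in myoblasts, where its mean is also lower at 1 h with overlapping groups. The differentiated groups of Bcl2 overlap at all 3 times.

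Without stretching the member that differed most between the time points was Bmf in myoblasts, by a log2 fold change of -0.65 ± 0.182 at 6 h against 1 h (adjusted p = 0.0544, edgeR), past the fold limit but not the adjusted p. No member passed both limits between 6 h and 1 h or between 3 h and 1 h in either stage by edgeR or by DESeq2, where 0.259% and 0.143% of all genes did in myoblasts and 0.187% and 0% in differentiated cells. The members with an unadjusted p under 0.05 in edgeR numbered 4 and 0 in myoblasts and 3 and 3 in differentiated cells. Nothing is read from these unadjusted counts, as the share of all genes beside them is not given here. Bcl2l11 in myoblasts was the 1 member whose adjusted p passed, with a log2 fold change of -0.30 ± 0.0419 at 6 h (adjusted p = 0.00078, edgeR), below the fold limit. In differentiated cells the same difference of Bmf was -0.13 ± 0.044 (adjusted p = 0.106, edgeR). In myoblasts Bmf was past both limits without non-stretched replicate 8 at 1 h (-0.80, adjusted p = 0.0274, edgeR) and with no filter on low counts (-0.66, adjusted p = 0.015, edgeR). These libraries are also the controls of the stretched cells.

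The experiments of a stage differed little for the members. No member passed both limits between B31 and B27 in myoblasts, where 0.201% of all genes did, or between B28 and B25 in differentiated cells, where 1.26% did. DESeq2 also counted 0 in both. In each, 3 members had an unadjusted p under 0.05 in edgeR, a count given without the share of all genes and from which nothing is read. In differentiated cells Bcl2 was lower (log2 fold change -0.22, adjusted p = 0.00455, edgeR) and Bid higher (0.15, adjusted p = 0.0318, edgeR) in B28 than in B25, both below the fold limit. Bmf averaged 17.4 ± 1.12 CPM in B25 and 16.7 ± 0.888 CPM in B28 (SD, n = 6 each).

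Beyond the 10 members, 80 genes of the pathway in 6 lists were followed, of which 71 passed the filter on low counts in each myoblast comparison and 72 in each differentiated one. The p-values of these genes with stretching are not free of that choice of lists. With stretching 1 of them was past both limits, Ddit3, which encodes the stress factor CHOP, known to act on the Bcl2l11, Bbc3 and Bcl2 genes. Past both limits at 6 h were 2.17% of all genes in myoblasts and 2.04% in differentiated cells, and nothing is read from this count. At 6 h Ddit3 measured 12.6, 12, 13.3 and 12.1 CPM in non-stretched and 30.4, 22.1, 35.2 and 23.4 CPM in stretched myoblasts, a log2 fold change of 1.18 ± 0.131 (adjusted p = 0.000175, edgeR). In differentiated cells it measured 15.1, 15.2, 18.0 and 16.5 against 28.4, 26.0, 39.5 and 34.0 CPM, a log2 fold change of 0.97 ± 0.119 (adjusted p = 0.000704, edgeR). In both stages all stretched libraries lay above all non-stretched ones at 6 h.

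At 1 h and 3 h no gene of the 6 lists passed both limits in either stage, by edgeR or by DESeq2; those with an unadjusted p under 0.05 in edgeR numbered 8 and 37 in myoblasts and 8 and 31 in differentiated cells. At 6 h they numbered 32 in each stage. The share of all genes under that unadjusted p is not given here, so nothing is read from these counts. The median log2 fold change of each list lay within 0.11 of 0 in all 6 comparisons, against medians of -0.01 to 0.00 over all genes.

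The dynein light chain genes, whose products hold Bmf and Bim, were higher in stretched cells at 6 h in both stages, with adjusted p-values under 0.05 and changes under the fold limit. Dynll2, whose product holds Bmf on myosin V, measured 127, 127, 127 and 129 CPM in non-stretched and 149, 144, 157 and 146 CPM in stretched myoblasts, a log2 fold change of 0.24 ± 0.0332 (adjusted p = 0.000543, edgeR). In differentiated cells it measured 109, 112, 102 and 115 against 134, 132, 130 and 125 CPM, a log2 fold change of 0.25 ± 0.0415 (adjusted p = 0.00284, edgeR). For Dynll1 the log2 fold changes were 0.34 ± 0.0701 in myoblasts and 0.35 ± 0.0622 in differentiated cells (adjusted p = 0.00448 and 0.0039, edgeR). Neither gene passed the adjusted p at 1 h or 3 h, and Myo5a, the myosin V heavy chain, did not at any time. The change at 6 h was not particular to the dynein light chains. Of the 9 binding partners 5 passed the adjusted p at 6 h in each stage, the others being Ywhab, Ywhag and Ywhah. In myoblasts 4 of the 5 were higher and 1 lower, and in differentiated cells all 5 were higher. Past the adjusted p at 3 h were 5 of the 9 in myoblasts and 1 in differentiated cells. The share of all genes past the adjusted p alone is not given here, so nothing is read from these counts.

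The 15 family genes outside the members held 8 that passed the filter. None of the 8 passed both limits with stretching. Bcl2l2, the survival gene for Bcl-w, was lower in stretched cells at 3 h in both stages (log2 fold change -0.23 in myoblasts, where single libraries overlapped, and -0.15 in differentiated cells, adjusted p = 0.00559 and 0.00568, edgeR). Bik, a BH3-only gene whose group means at 3 h lay between 0.896 and 1.61 CPM, had log2 fold changes of -0.51 in myoblasts and -0.46 in differentiated cells (adjusted p = 0.0234 and 0.0364, edgeR). Bok, a relative of Bax, had 0.19 and 0.22 (adjusted p = 0.000975 and 0.00295, edgeR). The pore-forming gene Bak1 did not pass the adjusted p at any time.

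Between the stages, where 27% of all genes were higher and 24.8% lower past both limits, several counts in the lists lay near those shares, and nothing is read from the counts as such. Of the 8 family genes, Bcl2l2 (log2 fold change 0.70) and the mitophagy receptor Bnip3 (0.83) rose in differentiated cells and Bok (-0.66) fell past both limits, and Bak1 measured -0.58, just under the fold limit. Of the 9 binding partners 4 fell past both limits and none rose past them, with 1 higher by the adjusted p alone: the 14-3-3 genes Ywhah (-1.25), Ywhaq (-1.16) and Ywhaz (-1.04), whose products hold phosphorylated Bad, and Myo5a (-0.98). The list medians were -0.28 and -0.36, against 0.01 over all 16269 genes.

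The counts of the remaining lists stand beside the same shares of all genes, 27% higher and 24.8% lower past both limits, and nothing is read from them. Of the 18 regulators tested, 6 rose and 2 fell past both limits. The 4 largest changes were Foxo1 (1.79), which drives Bcl2l11 and Bbc3 in other cells, Foxo4 (1.37), Fbxw7 (1.34), a ubiquitin ligase of Mcl1, and E2f1 (-1.31). Of 10 p53 target genes 4 rose and 1 fell, led by the cell cycle inhibitor Cdkn1a (3.53), Eda2r (2.60), Trp53inp1 (1.55) and Perp (1.49). Of the 20 genes of the apoptosome, caspases and their inhibitors 1 rose and 6 fell, led by the inhibitor Birc5 (-2.76), which is also a mitotic gene, Birc3 (1.84, at 0.0853 and 0.313 CPM) and Casp8 (-1.44). Of 7 death receptor genes 1 rose, Fas (2.57), and 2 fell, the adaptor kinase Ripk1 (-0.86) and the caspase 8 inhibitor Cflar (-0.59, at the fold limit and under it in several alternatives). The proliferation marker Mki67 fell with the stage from 576 to 112 CPM, and its part in these list values was not tested.

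Over the 24 differentiated libraries the gene whose log2 CPM was most like that of Bmf was Txnip, an inhibitor of glucose uptake and of thioredoxin, with a Pearson r of 0.954 over 11870 genes that averaged 100 counts or more. Tspyl5 (0.937), Fam13c (0.910), Mdp1 (0.900) and Vamp4 (0.874) followed. The lowest r were those of the MAPK phosphatase gene Dusp4 (-0.949), Asb5 (-0.935) and the phosphatase gene Ptp4a1 (-0.934). All points share the 6 groups, and the stretch difference that chose Bmf is part of this likeness. After removing the 6 group means r was 0.887 for Txnip, 0.310 for Vamp4 and -0.800 for Dusp4. These residuals include replicate 4 of the cells stretched for 1 h, and r of residuals without it was not computed. In that group Txnip ran from 19.8 to 46.5 CPM and Dusp4 from 64.0 to 85.9 CPM.

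Txnip averaged 69.0 ± 8.1, 55.5 ± 5.27 and 62.3 ± 5.84 CPM in non-stretched differentiated cells in order of time and 38.3 ± 12.5, 27.9 ± 4.85 and 35.5 ± 2.22 CPM in stretched ones (SD, n = 4 each). Dusp4 averaged 52.0 ± 1.62, 56.3 ± 1.16 and 53.8 ± 1.37 CPM without and 70.0 ± 10.6, 75.0 ± 6.41 and 67.1 ± 3.82 CPM with stretching. Among the other members Mcl1 had the lowest r with Bmf, at -0.882, and Bbc3 the highest, at 0.760. Without replicate 4 of the cells stretched for 1 h they were -0.874 and 0.702. After removing the 6 group means, with replicate 4 kept, they were -0.680 and 0.600. The members were chosen on their values with stretching, which are part of the r over all 24 libraries, so these r are a description.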

How the data were processed

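The series holds 48 RNA-seq libraries of C2C12 cells in 12 groups of 4, grouped by the library titles (stage, stretching, time). Per the methods of the study, whole-cell RNA was isolated with a column kit and sequenced as paired ends from a stranded mRNA kit; the labels call the molecule nuclear RNA. The deposited values are gene counts made by the authors, 1 table per stage; the submitters' processing notes name STAR, Salmon, DESeq2 and the build mm10. Whether counting used strand is not given in the sources used here. All columns were used, and 0 libraries were identical.

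Counts were analysed as deposited by quasi-likelihood in edgeR 4.0.16 (limma 3.58.1, R 4.3.3), with TMM scaling and filterByExpr. Stretched and non-stretched cells were compared per stage and time in 8 libraries, stages in 24 non-stretched libraries with time as covariate, times and experiments in 12 non-stretched libraries with the other as covariate. Both limits means an adjusted p (Benjamini-Hochberg, over all genes tested) under 0.05 and an absolute log2 fold change of at least 0.58. Levels are CPM scaled over all 48 libraries. The p-values measure the spread between these libraries, which come from 2 experiments per stage (and 1 library of another), so part of it may be technical. Likeness to Bmf is a Pearson r of log2 CPM (prior count 1). Promoter windows are from RefSeq GRCm38.p6, for 9 of 10 members (all but Pmaip1), and exons from GENCODE. Scripts were tested on data drawn from the real means.

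The 10 members and the gene lists were chosen with earlier results of these data known. All members may be named, as may tested genes of the family and partner lists; of the other lists, the 4 largest changes past both limits per comparison, of which 1 is not reported here; and the 5 genes of highest and 3 of lowest r with Bmf. Alternatives were DESeq2 1.42.0, RLE scaling, other filters, all libraries of a stage, the experiment or replicate number as a term, no fold limit, libraries summed per experiment, and leaving out each library.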

Additional observations from a re-analysis of the deposited data

Results flagged for a closer look

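In 4 of 120 groups of 4 libraries, 1 library of a member stood apart from the other 3 by Dixon's test, which chance gives in about 1 of 20 groups. Bcl2l11 measured 13.5 CPM in stretched myoblasts at 3 h, replicate 10, against 15.9 to 16.1 CPM in the others. Bcl2l11 measured 13.8 CPM in non-stretched differentiated cells at 6 h, replicate 9, against 15.8 to 16.0 CPM. Pmaip1 measured 107 CPM in non-stretched differentiated cells at 6 h, replicate 10, against 118 to 120 CPM. Mcl1 measured 267 CPM in differentiated cells stretched for 1 h, replicate 4, against 229 to 233 CPM, and this is the library of experiment B17, which has no non-stretched cells in the series.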

How the results depend on the processing

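Under the alternatives 319 counts stayed within 1.5 times the reported count, 38 did not. Of the values of single genes 4275 were unchanged. For the members with stretching, unchanged means a log2 fold change within the SD between libraries of a group, whether or not the threshold was crossed. For all other values it means the same side of the threshold. Of those others 32 lost it (Cflar and Zmat3 between stages). The 22 that gained it were of Birc2, Bak1 and Jun between stages, and of Bmf between 6 h and 1 h in myoblasts. None reversed. Without the fold limit the members past the threshold with stretching numbered 3, 6 and 6 in myoblasts in order of time and 4 and 7 in differentiated cells at the later times; the other pathway genes numbered 3, 28 and 23, and 2, 21 and 17. Between stages 6 members were then higher and 3 lower, 1 (Bcl2l11) differed between 6 h and 1 h in myoblasts, and 2 (Bcl2, Bid) between B28 and B25. The share of all genes past the adjusted p alone is not given here, so nothing is read from these counts without the fold limit. In differentiated cells at 1 h the count of members went from 0 to 1 (Bmf) with DESeq2, with no filter on low counts, with all 24 libraries of the stage and with experiment as covariate. In myoblasts at 6 h it went from 1 to 0 with at least 10 counts in every library. With no filter, 1 member (Bmf) passed between 6 h and 1 h in non-stretched myoblasts. Leaving out 1 library at a time, the counts of members ran from 0 to 1 in myoblasts at 1 h and 6 h, in differentiated cells at 1 h and between 6 h and 1 h in myoblasts, as did that of other genes in myoblasts at 3 h (Bik, without stretched replicate 8). Where a single library was left out, the log2 fold change of Bmf with stretching ran from -1.32 to -1.02, -0.89 to -0.75 and -1.37 to -0.74 in myoblasts and from -0.86 to -0.62, -0.84 to -0.79 and -0.74 to -0.67 in differentiated cells, and that between stages from 4.38 to 4.45. Of the 8 genes most like Bmf, 4 were shared with Spearman's rho, 1 with residuals from the group means and 4 without replicate 4. The cause of these shifts was not tested.

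Under a replicate block the count of members went from 1 to 0 in myoblasts at 6 h and from 0 to 1 in differentiated cells at 1 h, and no other count of members or other genes changed. The main comparisons did not pair libraries by number. The correlation of deviations was over 0.1 in 6 of 23 pairs (-0.04 to 0.15), and 10 of 23 non-stretched libraries correlated best with their own number. No chance level was computed for these values, so they do not decide whether the numbers pair the libraries. Depth limits Bmf in myoblasts, at 8 to 76 reads per library.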
